A study of Mus musculus with 8 samples.

Results

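The genes described here are 7 oncofetal regulators: the RNA-binding proteins Igf2bp1, Igf2bp2 and Igf2bp3, the LIN28 genes Lin28a and Lin28b, and the chromatin proteins Hmga1 and Hmga2. They were chosen by name, with earlier results of these data known. All 7 were found among the 39614 annotated loci (loci carrying a gene symbol) of 80155 loci in all. RNA-seq was made from whole hearts, with the atrial appendages cut off, of male outbred Hsd:ICR(CD-1) mice at postnatal day 1 (P1, 4 hearts) and postnatal day 7 (P7, 4 hearts), 1 library per heart, with no genetic change or treatment in either group. The comparison asks how the transcriptome differs between a stage at which the mouse heart is held to regenerate and a stage at which it no longer does. The values are FPKM, fragments scaled to the length of a locus in kilobases and to the mapped fragments of the library.

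The IGF2BP proteins bind mRNAs in the cytoplasm and affect their stability, transport and translation, and they are among the readers of N6-methyladenosine (m6A). LIN28 proteins bind precursors of the let-7 microRNAs and block their maturation, while let-7 in turn represses mRNAs that carry matches to its seed, LIN28, HMGA2 and IGF2BP mRNAs among the classical ones. HMGA proteins bind AT-rich DNA and bend it, and most of these genes are known for high expression in embryos and in many tumours and low expression in most adult tissues.

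The let-7 sequences and their matches in the genes are shown first, since the genes are linked through them. All 9 mature mouse let-7 and miR-98 sequences in RefSeq (GRCm38.p6) share the seed GAGGUAG, bases 2 to 8, written in capitals. The 3 below differ only outside the seed: let-7b and let-7c-2 lie at chr15:85707325-85707346 and chr15:85706616-85706637 (both + strand), within the let-7 locus that differed between the stages, and let-7a is shown beside them from chr13:48538239-48538260 (- strand).
mmu-let-7b-5p: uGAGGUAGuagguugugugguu
mmu-let-7c-5p: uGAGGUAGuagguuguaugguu
mmu-let-7a-5p: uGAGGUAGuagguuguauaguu

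The complement of the seed, CTACCTC, was searched in the longest annotated 3' UTR of every coding gene (GENCODE M21, GRCm38), on the transcribed strand only. CTACCTCA, which adds the A opposite the first base of the microRNA, contains the shorter motif, so every 8-base match is also a 7-base match. Of 21020 coding genes, 9.02% held a 7-base match and 3.06% an 8-base match. Each of the 7 genes held at least 1. The first match of each 3' UTR is given below with its 15 upstream bases, the match in capitals.
Igf2bp1: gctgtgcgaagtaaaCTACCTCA
Igf2bp2: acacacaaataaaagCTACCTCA
Igf2bp3: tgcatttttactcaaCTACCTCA
Lin28a: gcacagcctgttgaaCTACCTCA
Lin28b: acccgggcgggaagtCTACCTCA
Hmga1: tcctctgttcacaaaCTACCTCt
Hmga2: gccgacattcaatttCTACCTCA

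These windows lie at chr11:95961778-95961800 for Igf2bp1, chr16:22059473-22059495 for Igf2bp2, chr6:49086787-49086809 for Igf2bp3, chr4:134005189-134005211 for Lin28a, chr10:45381022-45381044 for Lin28b and chr10:120364224-120364246 for Hmga2, all on the - strand, and at chr17:27563277-27563299 on the + strand for Hmga1. Igf2bp1, Lin28b and Hmga2 each held 4 matches of 7 bases, a number reached by 0.0571% of all coding genes. Among other genes with a 3' UTR within 20% of the same length, as many were found in 0.178% for Igf2bp1, 0.157% for Lin28b and 0.0891% for Hmga2. Igf2bp2, Igf2bp3 and Hmga1 each held 1, where 12.0%, 13.3% and 8.04% of 3' UTRs of like length held 1 or more. Lin28a held 2, and at least as many were found in 2.06% of like 3' UTRs. In Hmga1 the base after the match was not A, so it had no 8-base match. A match is a description of the sequence and does not show that a microRNA binds there.

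The order of the levels was the same at both stages. Hmga1 was highest with mean FPKM of 25.4 in P1 and 33.0 in P7, followed by Igf2bp2, Igf2bp3, Igf2bp1, Lin28b, Hmga2 and Lin28a, and in all 4 hearts of each stage every gene was above the next one in this order. The ranges over hearts nevertheless overlapped between Igf2bp3 and Igf2bp1 in P1, and between Igf2bp1 and Lin28b at both stages. Lin28a was below FPKM 1 in every heart. Hmga2 was below FPKM 1 in every P7 heart and in P1 replicate 2. The other 5 genes were above it in every heart. In level per length, 86.0% of the 17960 annotated loci that reached FPKM 1 in any heart lay below Hmga1, 71.4% below Igf2bp2, 54.5% below Igf2bp3, 39.8% below Igf2bp1, 28.7% below Lin28b and 7.33% below Hmga2.

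**Figure D1:**
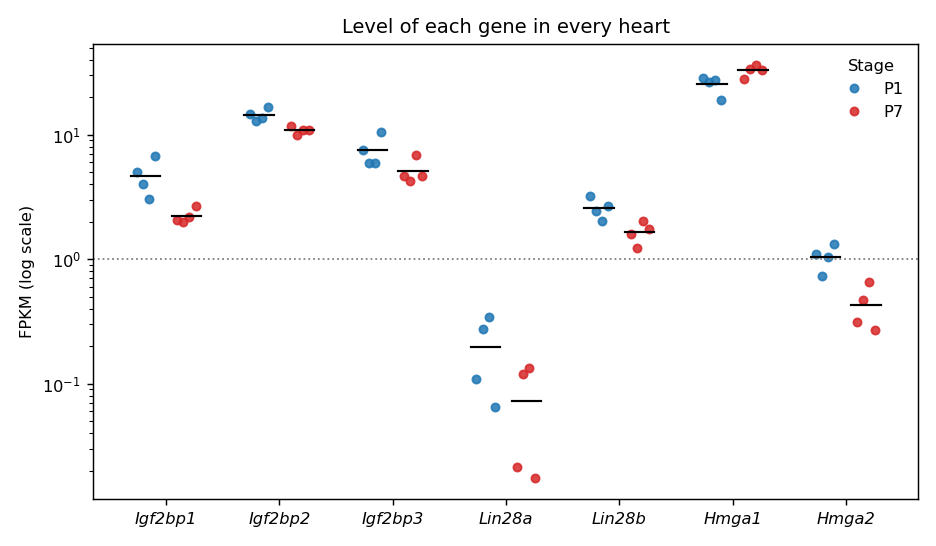
FPKM (log axis) of each of the 7 genes in every heart, P1 in blue and P7 in red. Points are hearts in replicate order, bars are stage means, and the dotted line is FPKM 1, below which all Lin28a points and all P7 points of Hmga2 lie.

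Igf2bp1, at chr11:95957139-96005940, binds and stabilizes mRNAs such as Myc and localizes Actb mRNA. It is listed in the files jointly with the microRNA Mir3063 as 1 locus. Igf2bp1 was at 5.01, 4.04, 3.07 and 6.70 FPKM in P1 replicates 1 to 4 and at 2.06, 1.99, 2.19 and 2.66 FPKM in P7 replicates 1 to 4. Every P7 heart was below every P1 heart, and the P1 hearts were spread more widely than the P7 hearts. Means of 4.70 ± 1.55 for P1 and 2.22 ± 0.31 for P7 (SD, n = 4 hearts each) put P7 at 47.3% of P1. A two-sided exact permutation test of the difference in mean log2(FPKM + 1) gave p = 0.0286, the smallest that 4 against 4 hearts can give. The permutation p-values of the other genes are from the same test. The log2 fold change of FPKM + 1 was -0.79 (SE 0.21), with a limma p of 0.0030 and a Benjamini-Hochberg adjusted p of 0.0644 over all tested loci, which misses the threshold of 0.05.

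Igf2bp2, at chr16:22059009-22163299, is the family member also expressed in adult tissues. Igf2bp2 was at 14.6, 13.0, 13.6 and 16.6 FPKM in the P1 hearts and at 11.8, 10.0, 10.9 and 11.0 FPKM in the P7 hearts, in replicate order. The stages did not overlap, although the highest P7 heart was close to the lowest P1 heart. Means were 14.5 ± 1.58 and 10.9 ± 0.72 (SD, n = 4 each; exact permutation p = 0.0286), with a log2 fold change of -0.37 (SE 0.17, limma adjusted p = 0.261).

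Igf2bp3, at chr6:49073795-49214954, is a largely fetal member of the family. Igf2bp3 was at 7.58, 5.89, 5.93 and 10.6 FPKM in P1 and at 4.63, 4.25, 6.90 and 4.67 FPKM in P7. The stages overlapped, because P7 replicate 3 stood above P1 replicates 2 and 3. Means were 7.50 ± 2.20 and 5.11 ± 1.21 (SD, n = 4 each; exact permutation p = 0.0857), with a log2 fold change of -0.46 (SE 0.22, limma adjusted p = 0.286). Without P1 replicate 4, the highest heart, the log2 fold change of Igf2bp3 was -0.30 (limma adjusted p = 0.311).

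Summed over the 3 genes, IGF2BP expression was 26.7 ± 5.25 FPKM at P1 and 18.3 ± 1.54 FPKM at P7 (SD, n = 4 each). Igf2bp2 made up most of the sum, with 54.9% ± 4.76 in P1 and 60.0% ± 3.93 in P7. The share of Igf2bp1 was 17.3% ± 2.68 in P1 and 12.2% ± 1.65 in P7, and that of Igf2bp3 27.7% ± 2.50 and 27.8% ± 4.48. Igf2bp1 ranged from 13.5% to 19.8% in P1 and from 10.9% to 14.5% in P7, so its shares overlapped between the stages.

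Lin28a, at chr4:134003278-134019869, encodes the LIN28 protein known from pluripotent cells. It was at 0.109, 0.272, 0.342 and 0.0646 FPKM in P1 and at 0.0212, 0.119, 0.133 and 0.0174 FPKM in P7. The stages overlapped, with means of 0.197 ± 0.132 and 0.0727 ± 0.062 (SD, n = 4 each; exact permutation p = 0.171). Since no heart reached FPKM 1, Lin28a was not among the loci tested with limma. The number of fragments behind such low values was not recovered, so a difference was not detectable here.

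Lin28b, at chr10:45335762-45470201, made up at least 85.6% of the LIN28 sum in every heart. Lin28b was at 3.23, 2.42, 2.04 and 2.68 FPKM in P1 and at 1.59, 1.24, 2.04 and 1.75 FPKM in P7. Every P7 heart was below every P1 heart, but P1 replicate 3 and P7 replicate 3 were nearly equal (2.04114 and 2.0411 FPKM). Means were 2.59 ± 0.50 and 1.65 ± 0.33 (SD, n = 4 each; exact permutation p = 0.0286), with a log2 fold change of -0.44 (SE 0.19, limma adjusted p = 0.241). The log2 fold change of Lin28b was -0.15 after correction for transcript GC content (limma adjusted p = 0.646).

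Hmga2, at chr10:120361275-120476469, is the HMGA gene most restricted to embryonic growth. Hmga2 was at 1.10, 0.738, 1.04 and 1.32 FPKM in P1 and at 0.312, 0.467, 0.657 and 0.269 FPKM in P7. No P7 heart reached the lowest P1 heart. Means were 1.05 ± 0.24 and 0.426 ± 0.176 (SD, n = 4 each), so that P7 was at 40.7% of P1 (exact permutation p = 0.0286). The log2 fold change was -0.52 (SE 0.20, limma adjusted p = 0.176), a scale that understates differences at such low levels. Hmga2 entered the test only through P1 hearts.

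Hmga1, at chr17:27556620-27566220, was the gene whose P7 mean was the higher one. Hmga1 was at 28.7, 26.5, 27.7 and 18.9 FPKM in P1 and at 28.0, 34.0, 36.6 and 33.2 FPKM in P7. P7 replicate 1 lay within the P1 range and P1 replicate 4 was the lowest of all hearts, so the stages overlapped. Means were 25.4 ± 4.44 and 33.0 ± 3.62 (SD, n = 4 each; ratio 1.30, exact permutation p = 0.0571), with a log2 fold change of 0.37 (SE 0.19, limma adjusted p = 0.320). After correction for transcript GC content the log2 fold change of Hmga1 was -0.10 (adjusted p = 0.754), so its direction depends on that step. Hmga2 made up 4.14% ± 1.65 of the HMGA sum at P1 and 1.26% ± 0.41 at P7 (SD, n = 4 hearts).

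Across the 6 genes that entered the limma fit, 0 were differentially expressed (an adjusted p below 0.05 with stage means 1.5-fold or more apart), against 8.14% of the 17960 annotated loci tested and 3.82% of all 43172 loci tested. Among these loci, calls were mostly increases, since 7.74% were called higher and 0.401% lower in P7. The counts that follow leave out Hmga2, whose direction was favoured by a filter that it passed only through P1 hearts. Of the 5 genes above FPKM 1 in every heart, Igf2bp1, Igf2bp2 and Lin28b were lower in P7 at an unadjusted limma p under 0.05, a limit that 4.10% of annotated loci passed in this direction. In these 3 the P7 hearts also all lay below the P1 hearts, a pattern seen in 2.69% of annotated loci. The log2 fold change was negative in 4 of the 5 genes, as in 32.4% of annotated loci. Their median, that of Lin28b, was -0.44, beside 0.19 over all annotated loci tested. The shares beside the 5 genes are over all 17960 loci, which reached FPKM 1 in any heart, a wider set than loci above it in every heart. Since the genes were chosen with earlier results of these data known, the shares are a description and carry no test. Over the 12730 annotated loci at FPKM 1 or more in every heart, the median log2 fold change was 0.23.

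Placed among all annotated loci tested, 2.22% had a lower log2 fold change than Igf2bp1, 4.83% lower than Hmga2, 6.17% lower than Igf2bp3, 6.92% lower than Lin28b, 8.94% lower than Igf2bp2 and 65.6% lower than Hmga1. These are percentiles within 1 comparison and carry no test. That of Hmga2 was favoured by the filter, which it passed only through P1 hearts.

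**Figure D2:**
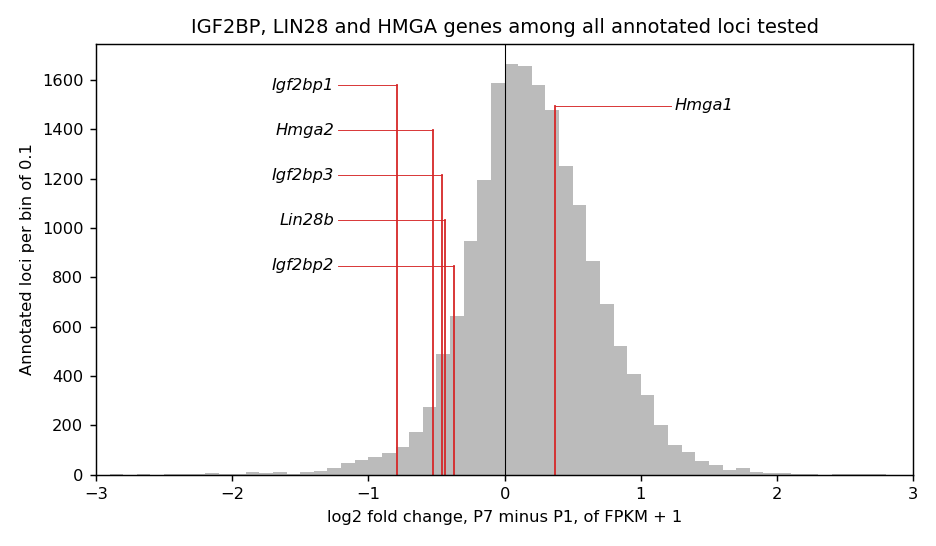
Histogram of the log2 fold change (P7 minus P1, FPKM + 1) of all annotated loci tested, as the number of loci per bin of 0.1, with the 6 tested genes as red lines. Of these, 5 lie in the left flank between -0.79 and -0.37, and Hmga1 lies to the right of 0 at 0.37. Among the 5 is Hmga2, whose direction was favoured by a filter that it passed only through P1 hearts.

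Whether these differences passed the threshold depended on the processing. On the deposited scale Igf2bp1 was called lower with a filter of FPKM 1 in every heart (limma adjusted p = 0.0145) and with sample quality weights (adjusted p = 0.0271), and no other gene of the 7 was. As deposited, the median annotated locus was 0.19 higher in P7 on the log2 scale. Median-ratio scaling, which divides each heart by its median ratio to the average heart over annotated loci, moved that median to 0.01 (factors from 0.801 for P1 replicate 3 to 1.27 for P7 replicate 3). Relative to the median locus, 4 of the 6 genes then fell in P7, where 3.67% of annotated loci were called lower (11.7% in either direction). Igf2bp1 fell by 0.96 on the log2 scale (limma adjusted p = 0.0089), Igf2bp3 by 0.67 (adjusted p = 0.0180), and Igf2bp2 and Lin28b each by 0.60 (adjusted p = 0.0146 and 0.0326). Hmga2 was at -0.61 and just missed the threshold (adjusted p = 0.0519), and Hmga1 was at 0.13 (adjusted p = 0.690). When GC correction followed this scaling, Igf2bp1 (-0.99, adjusted p = 0.0116) and Igf2bp2 (-0.56, adjusted p = 0.0312) passed, Lin28b and Igf2bp3 no longer did, and Hmga1 turned to -0.34 (adjusted p = 0.361). Leaving out 1 heart at a time under median-ratio scaling gave 2 to 4 genes called, the lowest number when P1 replicate 2 or either of P7 replicates 2 and 3 was absent. Over all alternatives tried, Igf2bp1, Igf2bp2, Igf2bp3, Lin28b and Hmga2 kept a negative log2 fold change wherever they could be fitted. Other filters, the replicate block and eBayes without trend leave the log2 fold change as it was, so its sign could not change there. Hmga2 entered the filtered fits only through P1 hearts. Which of the scales is the better one could not be settled from the files.

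**Figure D3:**
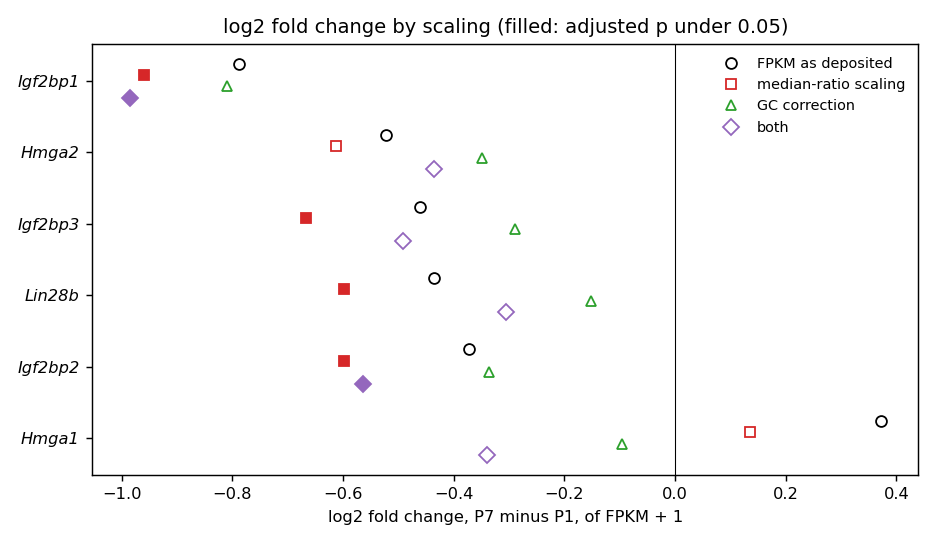
Log2 fold change (P7 minus P1, FPKM + 1) of the 6 tested genes with FPKM as deposited (black circles), median-ratio scaling (red squares), GC correction (green triangles) and both (purple diamonds). Filled symbols have a limma adjusted p under 0.05: 4 genes after median-ratio scaling, 2 after both steps and none as deposited or after GC correction alone, and Hmga1 crosses 0 with GC correction.

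In FPKM as deposited, P1 replicate 4 was the highest P1 heart for the 3 IGF2BP genes and Hmga2 and the lowest for Hmga1. Its median-ratio factor was also the highest among P1 hearts (1.16, the others 0.801 to 0.952), so it was high at the median annotated locus too. Some cell type markers moved between the stages beside the oncofetal genes. The summed FPKM of 4 fibroblast markers ranged from 377 to 690 over the P1 hearts and from 879 to 1068 over the P7 hearts, and that of 4 leukocyte markers was 15.9 to 21.3 and 34.1 to 46.7, both higher in every P7 heart. Among them Col1a1, Dcn and Lyz2 rose (limma). The leukocyte sum was mostly Lyz2 (13.6 FPKM at P1, 33.3 at P7), while Ptprc, Cd68 and Adgre1 each overlapped between the stages. Of the fibroblast markers, Col1a2 and Pdgfra overlapped. The sum of 4 endothelial markers ranged from 50.7 to 100.3 over P1 hearts and from 94.5 to 146 over P7 hearts, with Cdh5 and Tie1 called higher. The sum of 3 smooth muscle markers, mostly Acta2 (280.9 FPKM at P1, 148 at P7), ranged from 242 to 509 over P1 hearts and from 127 to 241 over P7 hearts, while Myh11 was at 2.03 and 3.13 FPKM and Tagln at 34.6 and 33.7 FPKM. All 6 cardiomyocyte markers were present, at mean levels from 89.3 FPKM for Ryr2 to 12648 FPKM for Myl2 in P7, and their sum overlapped between the stages. The sum of 3 brown and white fat markers was 5.06 FPKM in P7 replicate 2 and 14.5 FPKM in P7 replicate 4, and at most 0.757 FPKM in any other heart. The sums of erythroid, epicardial, nerve and thymus markers overlapped between the stages. The part of these cell types and tissues in the values above was not tested. In whole hearts, fewer cells that express a gene and less RNA of it per cell cannot be told apart.

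On the let-7 side, the precursor loci were examined next. These values are of long loci and not of mature microRNAs. Of 12 precursor genes listed, which fall on 10 distinct loci, 6 loci were tested and 1 rose in P7, where 7.74% of annotated loci were called higher. This was the locus of Mirlet7b and Mirlet7c-2 at chr15:85649775-85708669, which holds both mature sequences printed above. The Mirlet7b locus was at 8.31, 7.63, 6.25 and 14.7 FPKM in P1 and at 24.2, 19.6, 21.2 and 18.0 FPKM in P7. All 4 P7 hearts were above all P1 hearts, and P1 replicate 4 was nearest to them. Means were 9.22 ± 3.75 and 20.8 ± 2.66 (SD, n = 4 each), a ratio of 2.25, with a log2 fold change of 1.15 (SE 0.24, limma adjusted p = 0.0233). The call was lost without P1 replicate 1 (adjusted p = 0.0531), P1 replicate 2 (0.0876), P1 replicate 3 (0.0639), P7 replicate 1 (0.0759) or P7 replicate 3 (0.0665), while the log2 fold change stayed between 1.00 and 1.13 in these fits. It was also lost after GC correction (log2 fold change 0.95, adjusted p = 0.0653) and held under median-ratio scaling (0.92, adjusted p = 0.0110), there also with any 1 heart left out (adjusted p 0.0042 to 0.0419).

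The other let-7 loci gave no call. The joint Mirlet7a-1 and let-7d locus was at 48.8 ± 2.39 FPKM in P1 and 44.5 ± 5.64 in P7, and the Mir99a and Mirlet7c-1 locus at 16.7 ± 3.68 and 17.8 ± 3.19 (SD, n = 4 each). Mirlet7f-2 was at 7.18 ± 1.94 and 8.29 ± 1.73, and Mirlet7i at 4.12 ± 1.05 and 4.33 ± 0.60. Their limma adjusted p-values lay between 0.599 and 0.835. Mir98, listed with the same bounds as Mirlet7f-2, varied from 0 to 546 FPKM among P1 hearts and from 0 to 422 FPKM among P7 hearts (log2 fold change -2.28, SE 2.18, adjusted p = 0.543). Mirlet7a-2, let-7e, let-7f-1 and Mirlet7g were listed at 0 in every heart. Of these, let-7f-1 has the same bounds as the joint Mirlet7a-1 and let-7d locus. Its 0 therefore does not show an absent precursor.

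**Figure D4:**
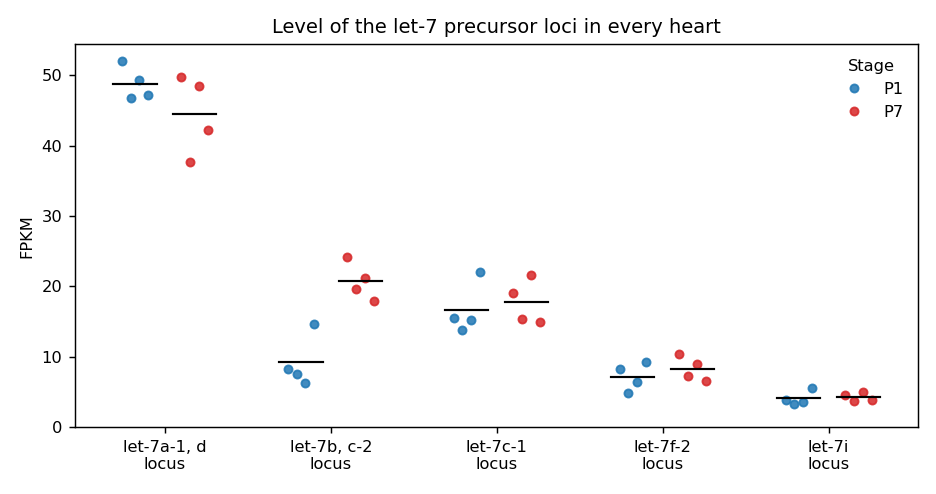
FPKM (linear axis from 0) of 5 let-7 precursor loci in every heart, P1 in blue and P7 in red, with bars at the stage means. At the let-7b and let-7c-2 locus the P7 hearts (18.0 to 24.2) lie above the P1 hearts (6.25 to 14.7), while at the other 4 loci the stages overlap.

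The partners of LIN28 in let-7 turnover showed no call among 5 tested genes (median log2 fold change 0.17), where 8.14% of annotated loci were called. Of the 5, 1 had an unadjusted limma p under 0.05, a limit that 29.7% of annotated loci passed in either direction. Trim25, a ubiquitin ligase and cofactor of this pathway, was at 4.07 ± 0.62 FPKM in P1 and 6.03 ± 0.62 in P7 (log2 fold change 0.48, adjusted p = 0.171). It was higher in every P7 heart, as were 17.3% of annotated loci. Khsrp, an RNA-binding protein that promotes let-7 processing, was at 37.4 ± 6.16 and 46.3 ± 4.38 FPKM (adjusted p = 0.386). Tut4, the uridylyltransferase recruited by LIN28A, was at 49.4 ± 7.00 and 49.1 ± 7.31 FPKM (adjusted p = 0.975). Trim71 did not reach FPKM 1 in any heart. All values are means ± SD with n = 4.

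The general microRNA machinery also had 0 calls, among 12 tested genes (median log2 fold change 0.16, 3 with an unadjusted limma p under 0.05). Of annotated loci, 8.14% were called and 29.7% had an unadjusted limma p under 0.05. Tarbp2, a partner of Dicer, was at 9.85 ± 2.45 FPKM at P1 and 16.4 ± 2.57 at P7 (SD, n = 4 each, log2 fold change 0.70, limma adjusted p = 0.0888). Its P7 hearts all lay above its P1 hearts, as in 17.3% of annotated loci. Ago1, an Argonaute protein, was at 5.89 ± 2.05 and 9.13 ± 0.96 FPKM (adjusted p = 0.177). Dicer1 itself was at 9.91 and 8.17 FPKM (adjusted p = 0.484).

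Of 17 genes known as let-7 targets outside the 7 genes, 0 were called, 14 had positive and 3 negative log2 fold changes, and the median was 0.24 beside 0.19 over all annotated loci. In 3 of them the P7 hearts all lay above the P1 hearts and in 0 below, beside 17.3% of annotated loci above. At an unadjusted limma p under 0.05 there were 5, beside 29.7% of annotated loci. The share of annotated loci called was 8.14%. Mycn, a growth-promoting transcription factor, was at 3.60 ± 0.57 FPKM at P1 and 6.47 ± 2.35 at P7 (SD, n = 4 each; log2 fold change 0.66, limma adjusted p = 0.155). Irs2, an adaptor of insulin signalling, was at 2.88 ± 0.81 and 4.96 ± 1.37 FPKM (0.61, adjusted p = 0.178).

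RNAs described as bound by IGF2BP proteins gave 0 calls among 7 (median log2 fold change 0.15, 3 with an unadjusted limma p under 0.05). Of annotated loci, 8.14% were called and 29.7% had an unadjusted limma p under 0.05. Igf2 and H19 were named after their values were seen. Igf2, the growth factor mRNA after which the family is named, was at 640, 548, 551 and 445 FPKM in P1 and at 425, 356, 426 and 355 FPKM in P7. All P7 hearts were below all P1 hearts, as in 2.69% of annotated loci. Means were 545.9 ± 79.8 and 390.3 ± 40.4 (SD, n = 4 each, log2 fold change -0.48, limma adjusted p = 0.236). H19, the noncoding RNA of the same imprinted region, was at 1576 ± 529 and 1675 ± 239 FPKM (adjusted p = 0.761). Lamb2, a laminin chain, was at 9.24 ± 5.03 and 18.6 ± 4.26 FPKM (log2 fold change 1.03, adjusted p = 0.0751), and Actb at 540.1 ± 56.3 and 804 ± 195 FPKM (0.55, adjusted p = 0.235).

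Other proteins that write, erase or read m6A, the mark that IGF2BP proteins also read, had 0 calls among 12 (median log2 fold change 0.06, 0 with an unadjusted limma p under 0.05). Of annotated loci, 8.14% were called and 29.7% had an unadjusted limma p under 0.05. Ythdc2, a reader and helicase, was at 9.12 ± 0.93 FPKM at P1 and 6.80 ± 1.16 at P7 (SD, n = 4 each, log2 fold change -0.38, limma adjusted p = 0.284). It was lower in every P7 heart, as were 2.69% of annotated loci. Virma, a subunit of the methyltransferase complex, was at 9.20 ± 1.90 and 7.37 ± 1.23 FPKM (adjusted p = 0.438).

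Relatives that share the RNA-binding domains of these proteins, the cold-shock domain of LIN28 and the KH domain of IGF2BP, had 2 calls among 14, both increases, where 7.74% of annotated loci were called higher (median log2 fold change of the list 0.17). Csdc2, a cold-shock protein, rose from 0.971 ± 0.187 to 3.55 ± 0.98 FPKM (SD, n = 4 each; log2 fold change 1.19, SE 0.20, limma adjusted p = 0.0129). Carhsp1, another cold-shock protein, rose from 11.0 ± 4.13 to 23.3 ± 3.97 FPKM (log2 fold change 1.06, SE 0.25, adjusted p = 0.0350). For both genes the P7 hearts all lay above the P1 hearts, as in 17.3% of annotated loci. The list's count was 0 without P1 replicate 2, 1 when P1 replicate 1 or 3 or P7 replicate 1, 3 or 4 was left out, and 5 without P1 replicate 4.

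Among 9 other high mobility group genes tested, 1 rose, beside 7.74% of annotated loci. Hmg20b, an HMG-box subunit of a histone demethylase complex, went from 23.0 ± 7.07 to 47.2 ± 8.75 FPKM (SD, n = 4 each; log2 fold change 1.05, SE 0.25, limma adjusted p = 0.0391), again with no overlap. That call was lost when any of P1 replicates 2 and 3 or any P7 heart was left out. Hmgn2, a nucleosome-binding protein, was at 205 ± 58.9 and 312 ± 71.4 FPKM (adjusted p = 0.208). The median log2 fold change of the list was 0.34, beside 0.37 for Hmga1, -0.52 for Hmga2 and 0.19 over all annotated loci.

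Proliferation genes are given beside the oncofetal genes because both are associated with growing tissue. None of 10 was called, 6 had negative and 4 positive log2 fold changes (median -0.11), and 2 had an unadjusted limma p under 0.05. Of annotated loci, 8.14% were called and 29.7% had an unadjusted limma p under 0.05. Plk1, a mitotic kinase, was at 5.18 ± 1.68 FPKM at P1 and 9.85 ± 3.76 at P7 (SD, n = 4 each; log2 fold change 0.78, adjusted p = 0.146). Top2a, a topoisomerase of dividing cells, was at 32.4 ± 5.73 and 22.1 ± 8.33 FPKM (-0.59, adjusted p = 0.245). Their summed FPKM lay between 195 and 258 at P1 and between 141 and 329 at P7, with P7 replicates 3 and 4 above and P7 replicates 1 and 2 below all P1 hearts. Among P7 hearts, Igf2bp3, Lin28a, Lin28b, Hmga1 and Hmga2 were also highest in replicate 3, Igf2bp1 in replicate 4 and Igf2bp2 in replicate 1. P7 replicate 3 had the highest median-ratio factor of all hearts (1.27), so it was high at the median annotated locus too.

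As a description of likeness, the annotated loci that followed each gene most closely over the 8 hearts were ranked by Pearson r of log2(FPKM + 1) among 15625 loci with a mean of at least 1 FPKM. The points share library and stage, so no test is given. For Igf2bp1 these were 2 loci listed as Crh (r = 0.99 and 0.97) and Gm13269 (0.98). Igf2bp2 was followed by 4921513I03Rik (0.99), Gm13269 (0.98) and Capn6 (0.98), and Igf2bp3 by Wisp1, Asb4 and Fam49b (0.98 each). Nearest to Lin28b were Gca, Fancb and Hdac8 (0.98 each). The loci nearest to Hmga1 were Ptms (0.98), 2900053A13Rik (0.98) and Cited4 (0.97), all higher in every P7 heart, and those nearest to Hmga2 were Klhl23 (0.97), Flrt3 (0.96) and Rpl30-ps3 (0.96). The symbols Crh, Gm13269, 4921513I03Rik and Hdac8 are carried by several loci in the files, and the values are of single loci.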

How the data were processed

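RNA of 8 male mouse hearts (4 P1, 4 P7) was sequenced. The authors isolated RNA with TRIzol, depleted ribosomal RNA, made ScriptSeq v2 libraries and sequenced paired ends. Their provider aligned reads to GRCm38 (Ensembl 70) and summed them per locus. The aligner and any use of strand are not given in the sources used here. The deposited unit is FPKM. Low values rise in whole-fragment steps, but the fragments behind each value were not recovered, so depth per value is unknown. A P1 heart had 14456 to 15718 annotated loci at FPKM 1 or more, a P7 heart 14991 to 15790. P1 replicate 3 had 28662 loci at this level in all (the other hearts 20269 to 22292), and the FPKM of P7 replicate 4 summed to 2136940 (the other hearts 1038650 to 1400590).

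Symbols joined by commas were split and matched ignoring case. The locus with the highest mean was used. The 43172 loci that reached FPKM 1 in any heart were fitted with limma 3.58.1 (R 4.3.3; lmFit, eBayes with trend) on log2(FPKM + 1), and p-values were adjusted over all of them with the Benjamini-Hochberg method. Calls needed an adjusted p below 0.05 and stage means 1.5-fold or more apart, after the study's thresholds. Single values were compared with a two-sided exact permutation test over 70 assignments. The scripts, run with Python 3.11.15, pandas 2.3.3, numpy 2.4.6, scipy 1.17.1 and statsmodels 0.14.6, were tested on simulated data of 43172 loci. With 200 loci set 4-fold apart, 190 were recovered, with 13 false calls. With 200 loci set 2-fold apart, 2 were recovered, with 0 false calls. In the data 1650 loci were called, and the adjusted p depends on how many loci differ. The share recovered in the simulation is therefore not the power in these data. Smaller differences, the size of most described here, were not tested in this way.

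The genes and lists were chosen with earlier results of these data known. Named in the text are the 7 genes, the 3 loci most like each, the called genes of each list and, where fewer than 2 were called, the 2 with the largest absolute log2 fold change. Igf2, H19, Tut4, Dicer1 and Trim71 were named after their values were seen, as were the marker genes. Alternatives were a pseudocount of 0.1, other filters, scalings, weights and priors, the replicate block, GC correction (lowess, span 0.3, GENCODE M21 transcripts, known for 85.9% of annotated loci) and each heart left out. Median-ratio scaling combined with the block, GC correction or a heart left out was added after seeing the data. P-values measure the spread between hearts, which the labels give as separate animals.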

Additional observations from a re-analysis of the deposited data

Results flagged for a closer look

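In 50 groups of 4 hearts (the named genes at each stage), the distance of the highest or lowest heart to its nearest neighbour was set against the range of the group. In 3 groups it exceeded Dixon's 95% critical value for 4 values, and chance gives about 1 in 20. For Igf2bp3, P7 replicate 3 was at 6.90 FPKM with the other P7 hearts at 4.25 to 4.67, a gap of 0.841 of the range. For Khsrp, P7 replicate 4 was at 39.7 FPKM with the others at 48.0 to 48.8 (0.913). For Ago1, the same heart was at 7.69 FPKM with the others at 9.51 to 9.70 (0.905).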

How the results depend on the processing

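The number of the 6 tested genes called was 0 as deposited and 0 whichever heart was left out. The number was 1 with a filter of FPKM 1 in every heart (5 tested), 4 with median-ratio scaling, 3 with quantile normalization, 1 with sample quality weights, and after median-ratio scaling 1 with the replicate block, 2 with GC correction and 2 to 4 with a heart left out. All of these calls were lower in P7. The log2 fold change of Hmga1 reversed with GC correction (-0.10), with median-ratio scaling and GC correction (-0.34) and with median-ratio scaling without P1 replicate 4 (-0.097). The ranges over alternatives were -1.05 to -0.63 for Igf2bp1 (adjusted p 0.0089 to 0.151), -0.63 to -0.31 for Igf2bp2 (0.0143 to 0.449), -0.74 to -0.29 for Igf2bp3 (0.0166 to 0.468), -0.66 to -0.15 for Lin28b (0.0273 to 0.646), -1.16 to -0.33 for Hmga2 (0.0519 to 0.374) and -0.34 to 0.45 for Hmga1 (0.195 to 0.909). Calls in the microRNA machinery were 0, and 1 with the every-heart filter or weights (0 to 2 with a heart left out). Calls among let-7 targets were 0, and 1 with the every-heart filter (0 to 1). For let-7 precursor loci the count of 1 became 0 with no filter, with loci of 1 symbol and with GC correction (0 to 1). For IGF2BP client RNAs it was 0, 1 with the every-heart filter, median-ratio scaling or weights and 2 with quantile normalization (0 to 1). For m6A proteins it was 0, 1 with median-ratio scaling and 2 with quantile normalization (0 to 0). For cold-shock and KH relatives the count of 2 became 0 with no filter, 4 with the every-heart filter, 5 with weights, and 1 without the eBayes trend or with GC correction (0 to 5). For other HMG genes the count of 1 became 0 with no filter, the replicate block, no trend or GC correction, and 2 with weights (0 to 1). For proliferation genes it was 0, and 1 with the every-heart filter, median-ratio scaling, quantile normalization or weights (0 to 0). Let-7 turnover partners had 0 calls throughout. Of all annotated loci, 1462 were called as deposited, 72 lower and 1390 higher. The split was 659 lower and 1445 higher after median-ratio scaling and 603 and 1403 after quantile normalization. Totals were 231 with no filter, 2573 with the every-heart filter, 2951 with weights, 941 without trend, 408 with GC correction, 871 with median-ratio scaling and GC correction, and 167 to 2835 with a heart left out. The cause of these differences was not tested.

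The replicate numbers did not pair the hearts, since the correlation of deviations between hearts of the same number ranged from -0.28 to 0.22. With the number as a block, 0 of the 6 genes and 1052 annotated loci were called, and 891 when it followed median-ratio scaling. Igf2bp1 had no value for loci with 1 symbol, Hmga2 none with the every-heart filter, and Lin28a was fitted only with no filter. At FPKM below 1, as for Lin28a and Hmga2 in P7, the unknown number of fragments limits what can be said.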
